A study of Homo sapiens with 31 samples.

Results

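In all, 10 genes of the glutathione transferase families were followed across the 4 cell line groups of the series: GSTP1 (Pi class), GSTM2, GSTM3 and GSTM4 (Mu class), GSTA4 (Alpha class), GSTO1 (Omega class), GSTK1 (Kappa class) and the membrane-bound MGST1, MGST2 and MGST3. They were chosen by gene symbol, and all 10 were found among the 19221 genes of the deposited table. Values are FPKM, fragment numbers corrected for transcript length and library size. The mRNA came from C13* cells that carried a control shRNA (C13* shCON, n = 7 libraries), C13* cells with an shRNA against CEBPB, the gene of the transcription factor C/EBPβ (shCEBPB, n = 8), the parent line A2780 (n = 8) and the olaparib-resistant line made from it (A2780 OlaR, n = 8). C13* is a cisplatin-resistant human line that the study used as an ovarian cancer model proficient in homologous recombination, while calling its origin questionable, and both of its groups carry a lentiviral shRNA. A2780 is a human ovarian cancer line, and A2780 OlaR grew out of it under rising exposure to olaparib, an inhibitor of PARP. A2780 OlaR is 1 derived line, and the olaparib given before harvest for RNA is not given in the sources used here. The study's methods plan biological replicates, but no label says which libraries came from separate cultures, so the p-values measure the spread between these libraries.

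Glutathione transferases join the thiol of glutathione, a tripeptide made of glutamate, cysteine and glycine, to electrophilic compounds, among them lipid peroxidation products and several anticancer drugs. The conjugates then leave the cell through ABC transporters. The soluble Alpha, Mu, Pi and Omega classes share a common fold, the Kappa enzyme lies in mitochondria and peroxisomes, and the microsomal enzymes are integral membrane proteins that also reduce lipid hydroperoxides. GSTP1 is the form found in most cultured carcinoma cells, and transcription of several of these genes is known to respond to NRF2 and AP-1.

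The groups did not separate as their labels pair them. In 1 fit of all 4 groups, 69 genes differed at least 2-fold between A2780 OlaR and C13* shCON, which was 0.532% of the 12967 genes tested, while 27.6% did so between C13* shCEBPB and C13* shCON and 34.8% between A2780 OlaR and A2780. The summed FPKM of 10 squamous markers (keratins, desmosomal genes, TP63, SFN and TRIM29) was 3203 to 3785 in shCON, 3099 to 3980 in A2780 OlaR, 309 to 674 in shCEBPB and 0.709 to 2.25 in A2780. The list was not uniform, since TRIM29 was higher in shCEBPB (mean 119.5) than in shCON (67.2). KRT5, a basal keratin, had a mean of 1530 in shCON and 1813 in A2780 OlaR and was under 1 in the other groups. Of 8 Mullerian and ovarian markers, 4 had a mean of at least 1 in shCON, 3 in A2780 OlaR, 3 in shCEBPB and 2 in A2780, and the means of WT1, MUC16 and EMX2 were under 1 in every group. Their sum was 998 to 1104 in shCEBPB, 73.8 to 84.0 in shCON, 69.0 to 79.1 in A2780 OlaR and 14.9 to 18.6 in A2780. FOLR1 alone had a mean of 887 in shCEBPB against 1.198 in shCON. Of the 5 markers tested in shCEBPB against shCON, 3 were higher and 2 lower, where 38.9% of all genes were called higher and 45.7% lower. SOX17, at 0 in shCON, and FOLR1, at 1 FPKM or more in 4 of 7 shCON libraries, were tested because they are high in shCEBPB. WFDC2 and PAX8, the 2 that were lower, were tested because they are higher in shCON. WFDC2 was at 0 in all shCEBPB libraries against a mean of 39.9 in shCON, and PAX8 had means of 0.536 and 6.10, respectively. PTPRC, a leukocyte gene, had a mean of 85.9 in A2780 and was near 0 elsewhere. For C13* shCON replicate 1, 1 label field names the line A2780, but the title says C13*. Leaving it out changed no call of the 10 genes. Thus each result below compares the libraries as labelled, and the effect of the shRNA or of olaparib selection cannot be told apart from a difference between lines. CEBPB itself had a mean of 85.8 in shCON, 47.1 in shCEBPB (54.9% of shCON), 99.7 in A2780 and 112 in A2780 OlaR.

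The promoters of a few of these genes are shown because their transcripts followed different patterns across the groups. They are the RefSeq windows on GRCh38.p14 from 250 bases before to 50 bases after the annotated start, each written 5′ to 3′ on the strand of the gene. Such an entry was found for 9 of the 10 genes (11 entries), all except MGST2. Capitals mark matches, on either strand, to AP-1 (TGANTCA), to the core of the antioxidant response element that NRF2 binds (TGACNNNGC) and to C/EBP (TTGCNNAA). A match describes letters and is not a measured binding site.
GSTP1, chr11:67583562-67583861, plus strand: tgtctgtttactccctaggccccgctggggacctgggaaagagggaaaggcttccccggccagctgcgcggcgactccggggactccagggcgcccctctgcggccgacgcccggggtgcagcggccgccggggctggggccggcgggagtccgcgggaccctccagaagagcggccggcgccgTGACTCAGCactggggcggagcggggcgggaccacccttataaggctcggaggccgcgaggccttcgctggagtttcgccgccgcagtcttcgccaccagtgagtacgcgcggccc
GSTM3, chr1:109740989-109741288, minus strand: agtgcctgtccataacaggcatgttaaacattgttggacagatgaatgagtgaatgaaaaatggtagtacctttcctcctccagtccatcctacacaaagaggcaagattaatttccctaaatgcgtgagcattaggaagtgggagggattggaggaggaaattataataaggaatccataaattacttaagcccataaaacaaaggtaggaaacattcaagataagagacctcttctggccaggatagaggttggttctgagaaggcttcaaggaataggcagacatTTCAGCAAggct
GSTA4, chr6:52995235-52995534, minus strand: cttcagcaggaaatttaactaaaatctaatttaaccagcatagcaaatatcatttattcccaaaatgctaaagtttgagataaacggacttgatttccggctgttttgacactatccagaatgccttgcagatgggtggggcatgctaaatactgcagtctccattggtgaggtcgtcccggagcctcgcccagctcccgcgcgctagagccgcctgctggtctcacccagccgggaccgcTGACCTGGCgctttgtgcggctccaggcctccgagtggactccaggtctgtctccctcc
MGST1, first of 3 entries, chr12:16347395-16347694, plus strand: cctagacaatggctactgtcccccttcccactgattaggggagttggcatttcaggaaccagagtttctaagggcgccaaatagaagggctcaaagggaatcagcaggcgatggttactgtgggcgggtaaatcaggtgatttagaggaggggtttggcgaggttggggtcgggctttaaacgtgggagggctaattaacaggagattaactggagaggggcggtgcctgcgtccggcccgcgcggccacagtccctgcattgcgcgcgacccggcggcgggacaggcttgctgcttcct

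In the GSTP1 window the AP-1 and antioxidant response matches overlap, and both begin 66 bases before the start. Among all 35116 promoter entries of the table, 7.71% held the AP-1 letters, 13.4% the antioxidant response core, 10.46% the C/EBP letters and 45.0% a GC box (GGGCGG). GSTA4 held 1 antioxidant response match that begins 9 bases before its start, and GSTO1 held 2. C/EBP letters were found for GSTM3 and GSTK1. The printed MGST1 window held none of these 3 motifs, while another MGST1 entry, farthest upstream, held 1 antioxidant response match after its start. The windows also differed in CpG: GSTP1 had 36 CpG, more than most promoters (percentile 87.3), and GSTM3 had 1 (percentile 3.96), against a median of 14 over all entries. GSTP1 and GSTM3 are thus the CpG-rich and the CpG-poor end of these genes.

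**Figure D1:**
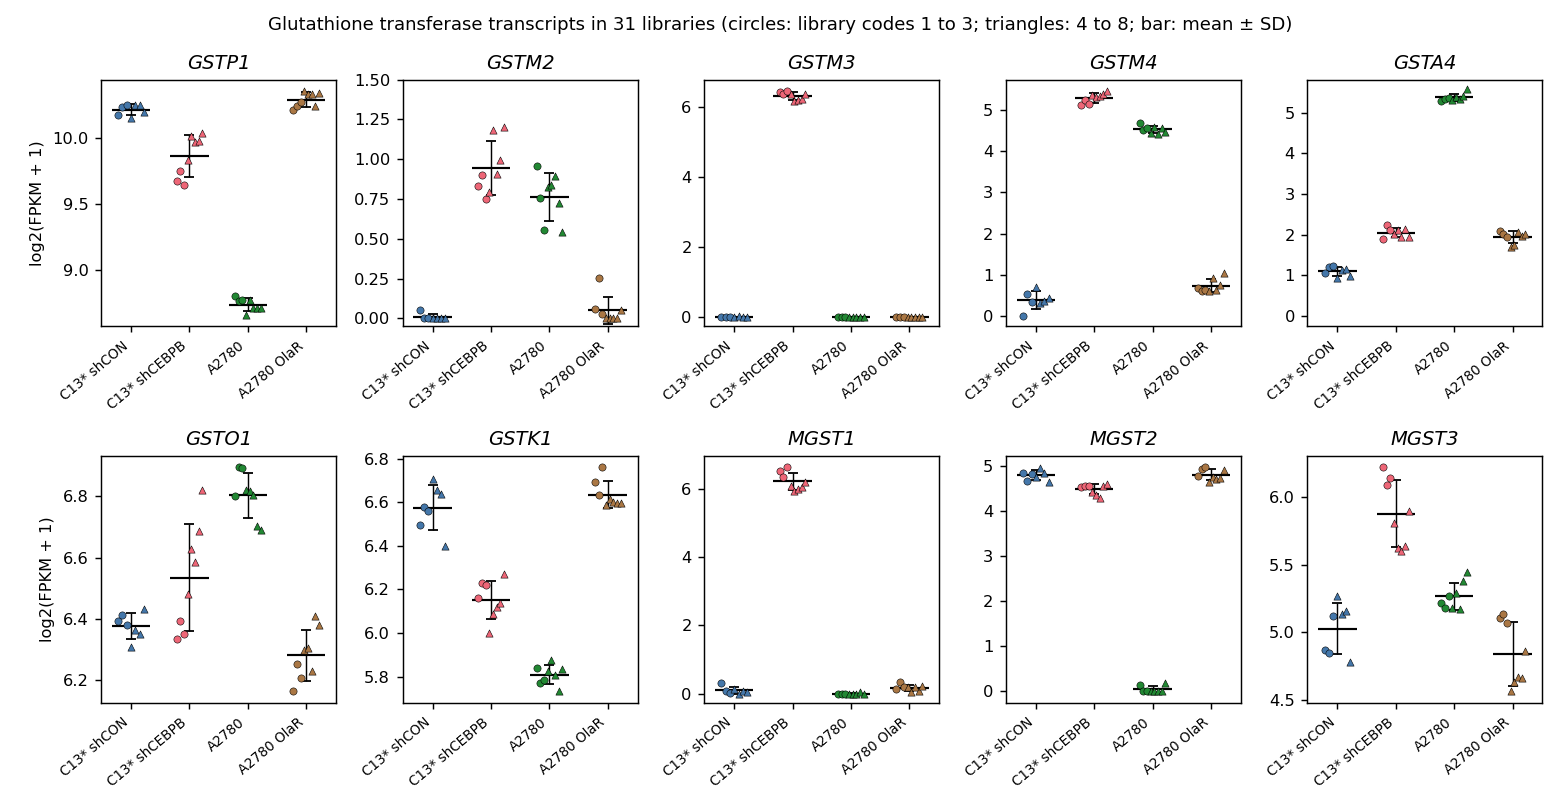
Level of each of the 10 glutathione transferase genes as log2(FPKM + 1) on the vertical axis, which is scaled separately in each panel and need not start at 0, by group on the horizontal axis. Each point is a library (circles, library codes 1 to 3; triangles, 4 to 8), with the mean and SD of its group. GSTM3 and MGST1 were high in C13* shCEBPB, GSTA4 was highest in A2780, and MGST2 was near 0 in A2780.

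GSTP1 gave the most abundant transcript of the 10 in every group. The gene lies on chromosome 11 of hg38 (67583742 to 67586656, plus strand), and its product conjugates many drugs and restrains JNK signalling. GSTP1 ranged from 1135 to 1217 FPKM in shCON (median 1206), from 1183 to 1310 in A2780 OlaR (median 1262), from 799 to 1052 in shCEBPB (median 958) and from 403 to 445 in A2780 (median 426). In the order of all genes of a library it was between 40th and 50th in A2780 OlaR and shCON, between 46th and 67th in shCEBPB and between 111th and 125th in A2780. The mean of shCEBPB (935 ± 101, SD, n = 8) was 78.7% of that of shCON (1188 ± 33.8, n = 7), and no library of one group reached the range of the other. GSTP1 fell in shCEBPB by 0.35 on the log2 scale (standard error 0.06, adjusted p = 3.43e-05 with limma; exact permutation p = 0.000311). In a bulk sample, less RNA per cell and fewer cells of a type that express the gene cannot be told apart. GSTP1 rose in A2780 OlaR, where the mean of 1252 ± 48.6 (n = 8) was 2.94 times that of A2780 (426 ± 13.6, n = 8).

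In A2780 OlaR against A2780 the median of all genes tested lay at -0.12 (log2), and at -0.01 once libraries were rescaled by their median ratio, so changes in this comparison are also given relative to that median. The log2 fold change of GSTP1 was 1.55 (standard error 0.03, adjusted p = 4.57e-20), or 1.67 relative to the median, with no overlap of the libraries. Its means in shCON and A2780 OlaR, the highest of the 4 groups, differed by -0.08 ± 0.05 (SE) on the log2 scale in the fit of all groups (adjusted p = 0.223), and their ranges overlapped.

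The Mu class genes form a cluster on chromosome 1, in the order GSTM4 (109656099 to 109665496), GSTM2 (109668022 to 109709551), GSTM1, GSTM5 and, on the minus strand, GSTM3 (109733932 to 109741038). GSTM3 was detected at high level in C13* shCEBPB only. It ranged from 70.9 to 86.8 FPKM there (median 81.9, mean 79.5 ± 6.23), was listed at 0 in all A2780 and A2780 OlaR libraries, and was at 0 in 6 of 7 shCON libraries, with 0.0213 in the other. The fitted log2 change against shCON was 6.32 (standard error 0.05, adjusted p = 4.12e-24), a size that depends on the pseudocount of 1, since 0.01 in its place gave 12.72. Of its exon bases, 202 are shared with a long noncoding RNA on the other strand, and whether counting used the strand is not given in the sources used here.

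GSTM4 was high in 2 groups. It ranged from 33.9 to 43.1 FPKM in shCEBPB (median 39.0) and from 20.4 to 24.7 in A2780 (median 22.2). In shCON it ranged from 0 to 0.628 (median 0.282), and in A2780 OlaR from 0.517 to 1.06 (median 0.569). The high and the low groups therefore did not overlap. GSTM4 rose in shCEBPB by 4.91 on the log2 scale (standard error 0.08, adjusted p = 1.67e-19) and fell by 3.80 in A2780 OlaR (standard error 0.06, adjusted p = 3.16e-21), which is -3.68 relative to the median. With a pseudocount of 0.01 these changes were 7.47 and -5.07.

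GSTM2 followed the same groups at a level near the filter of 1 FPKM. It ranged from 0.683 to 1.30 FPKM in shCEBPB (median 0.872) and from 0.458 to 0.942 in A2780 (median 0.733), whereas 6 of 7 shCON libraries and 4 of 8 A2780 OlaR libraries were at 0. The highest values there were 0.0383 and 0.193, so the high and low groups again did not overlap. GSTM2 did not reach 1 FPKM in enough libraries to enter the fit across genes, and the exact permutation p was 0.000155 in both comparisons, the smallest that these group sizes allow. GSTM2 shares 559 exon bases with GSTM1 on the same strand, and 15.9% of the 75-base stretches of its transcripts also occur in GSTM1. GSTM1, its neighbour, was at 58.4 to 78.4 FPKM in shCEBPB and at 0 in all shCON and A2780 OlaR libraries, so reads from the shared stretches cannot be told apart in shCEBPB. In A2780, where GSTM2 was nearly as high, GSTM1 was at 0 in 7 of 8 libraries and at 0.0481 in the other. For GSTM4, 2.89% of the stretches occur in other transferase genes, and for the 8 genes besides GSTM2 and GSTM4 none did.

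**Figure D2:**
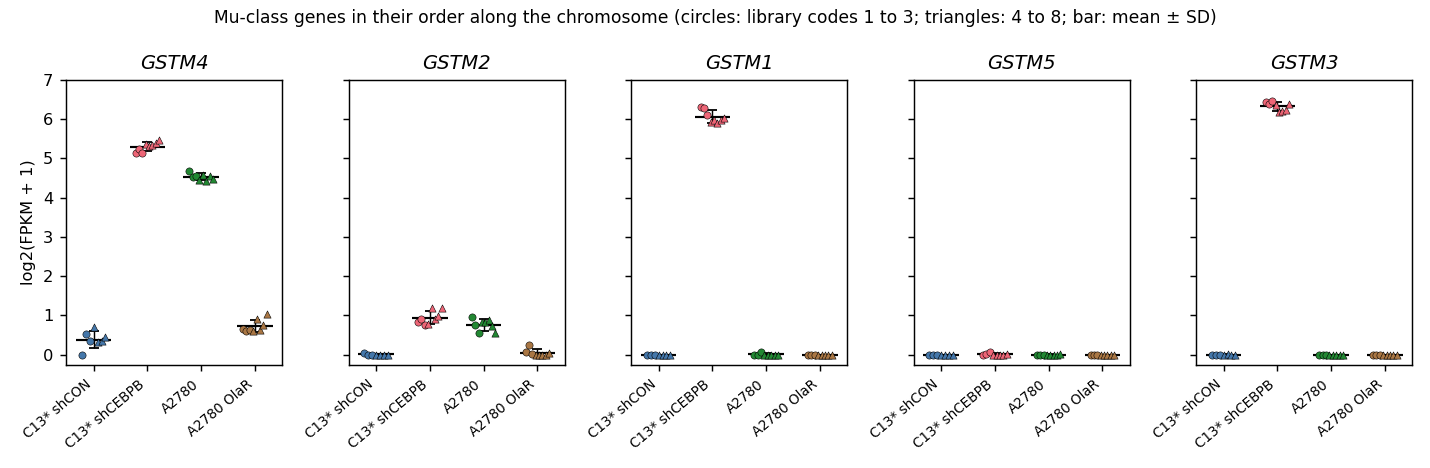
Levels of the Mu class genes as log2(FPKM + 1) (vertical axis, the same in all panels) by group, with panels in chromosome order. Points are libraries (circles, library codes 1 to 3; triangles, 4 to 8), with the mean and SD. GSTM1 and GSTM3 were high in C13* shCEBPB, GSTM4 in C13* shCEBPB and A2780, and GSTM5 stayed at or near 0 in all groups.

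GSTA4, whose enzyme clears the lipid peroxidation product 4-hydroxynonenal, was highest in A2780. The gene lies on chromosome 6 (52977948 to 52995304, minus strand). GSTA4 ranged from 38.0 to 46.7 FPKM in A2780 (median 39.6), from 2.71 to 3.68 in shCEBPB (median 3.18), from 2.22 to 3.27 in A2780 OlaR (median 2.95) and from 0.909 to 1.33 in shCON (median 1.18). A2780 stood apart from all other groups. GSTA4 fell in A2780 OlaR to 7.05% of the A2780 mean, a log2 change of -3.43 (standard error 0.06, adjusted p = 7.65e-21), or -3.31 relative to the median. It rose in shCEBPB by 0.96 (standard error 0.06, adjusted p = 4.56e-11), with no overlap with shCON. The means of shCEBPB and shCON, 3.16 and 1.14 FPKM, lie close to the pseudocount of 1. Other settings gave changes of 0.92 to 1.46. In the fit of all groups, GSTA4 was 1 of 2 genes, of the 9 tested, that were called between shCON and A2780 OlaR (log2 difference -0.84 ± 0.06, adjusted p = 1.05e-12), and its ranges there did not overlap. The other was GSTM4 (-0.35 ± 0.08, adjusted p = 4.88e-04), whose ranges overlapped. For comparison, 37.7% of all genes tested were called between those groups. The other Alpha genes were barely present: the highest library value of GSTA1 was 0.307 FPKM, in A2780.

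GSTO1 and GSTK1 were expressed at moderate level in every library. GSTO1, on chromosome 10 (104235356 to 104267459, plus strand), reduces dehydroascorbate and thiol adducts of proteins. It ranged from 102 to 118 FPKM in A2780 (median 111), from 79.7 to 112 in shCEBPB (median 91.7), from 78.2 to 85.4 in shCON (median 82.2) and from 70.7 to 83.9 in A2780 OlaR (median 76.5). GSTO1 fell in A2780 OlaR by 0.52 (log2, standard error 0.04, adjusted p = 3.12e-10), or -0.40 relative to the median, with no overlap. Its rise in shCEBPB was 0.16 (standard error 0.07, adjusted p = 0.0325), the libraries overlapped, and this call did not hold under several settings. The sign turned with quantile normalization (-0.0046, adjusted p = 0.937) and in libraries coded 1 to 3 (-0.04, adjusted p = 0.508), and the call was lost when any 1 of 7 libraries was left out.

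GSTK1, on chromosome 7 (143244093 to 143270854, plus strand), encodes the Kappa enzyme. It ranged from 95.1 to 107 FPKM in A2780 OlaR (median 96.5), from 83.3 to 104 in shCON (median 94.5), from 63.0 to 76.1 in shCEBPB (median 70.0) and from 52.2 to 57.8 in A2780 (median 55.4). Only the first pair of groups overlapped in this order. GSTK1 rose in A2780 OlaR by 0.83 (log2, standard error 0.03, adjusted p = 3.06e-15), or 0.94 relative to the median. In shCEBPB it fell by 0.42 (standard error 0.05, adjusted p = 4.45e-07).

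The microsomal enzymes showed 3 different patterns. MGST1, on chromosome 12 (16347142 to 16609259, plus strand), protects membranes from lipid peroxides. It ranged from 60.3 to 97.0 FPKM in shCEBPB (median 68.7, mean 74.0 ± 13.5) and was at trace level in all other groups, at 0 to 0.253 in shCON, 0.0452 to 0.280 in A2780 OlaR and 0 in 7 of 8 A2780 libraries, with 0.0477 in the other. After correction for relative depth these trace values were whole multiples of the lowest one, 0 to 10 in shCON, 2 to 11 in A2780 OlaR and 0 to 2 in A2780, so they rest on very few fragments. MGST1 rose in shCEBPB by 6.10 (log2, standard error 0.09, adjusted p = 4.35e-20), and by 10.23 with a pseudocount of 0.01. It was too low to test across genes in A2780 OlaR against A2780.

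MGST2 was the reverse case, at or near 0 in a single group. The gene lies on chromosome 4 (139665768 to 139740745, plus strand), and its enzyme can make leukotriene C4. It ranged from 23.9 to 30.0 FPKM in shCON (median 27.3), from 23.8 to 30.2 in A2780 OlaR (median 26.0) and from 18.6 to 23.2 in shCEBPB (median 22.2). In A2780 it was at 0 in 6 of 8 libraries, with a highest value of 0.140. MGST2 rose in A2780 OlaR by 4.76 (log2, standard error 0.05, adjusted p = 3.62e-24), or 4.88 relative to the median, and by 10.47 with a pseudocount of 0.01. It fell in shCEBPB by 0.31 (standard error 0.06, adjusted p = 9.52e-05), without overlap. Of its exon bases, 252 are shared with MAML3 on the other strand. Between shCON and A2780 OlaR its log2 difference was -0.01 ± 0.06 (adjusted p = 0.933).

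MGST3 was present in every library. The gene lies on chromosome 1 (165631213 to 165661796, plus strand), outside the Mu cluster. It ranged from 47.5 to 73.7 FPKM in shCEBPB (median 56.9), from 35.0 to 42.6 in A2780 (median 36.9), from 26.4 to 37.6 in shCON (median 33.9) and from 22.6 to 34.2 in A2780 OlaR (median 26.2). shCEBPB lay above all other groups. MGST3 rose in shCEBPB by 0.85 (log2, standard error 0.11, adjusted p = 6.42e-07). In A2780 OlaR it fell by 0.43 (standard error 0.08, adjusted p = 8.05e-05), or -0.31 relative to the median. That fall was 0.12 in libraries coded 1 to 3 (adjusted p = 0.0117) and 0.62 in libraries coded 4 to 8 (adjusted p = 2.44e-07).

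In C13* shCEBPB against C13* shCON, 9 of the 10 genes could be tested, and 6 rose and 3 fell. GSTM3, MGST1, GSTM4, GSTA4, MGST3 and GSTO1 rose, and GSTK1, GSTP1 and MGST2 fell. Among all 12006 genes tested in that comparison 84.7% were called, 38.9% higher and 45.7% lower, so that a call by itself was the usual outcome. The libraries did not overlap for 66.0% of all genes, and 29.5% were called with at least a 2-fold change, as were 3 of the 9. Those 3 genes, GSTM3, MGST1 and GSTM4, changed at least 16-fold, as did 2.07% of all genes. GSTA4 missed 2-fold on the log2(FPKM + 1) scale (0.96), while its FPKM means differed 2.76-fold. GSTM3, MGST1 and GSTM4 reached 1 FPKM in no shCON library and GSTA4 in 5 of 7, so these 4 entered the test through shCEBPB, where they are high, and the counts that include them describe the genes that passed. The median log2 change of the 9 was 0.85, against -0.07 over all genes tested.

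In A2780 OlaR against A2780, 7 of the 10 genes could be tested, and 3 rose (MGST2, GSTP1 and GSTK1) and 4 fell (GSTM4, GSTA4, GSTO1 and MGST3). Among all 12458 genes tested 89.8% were called, 40.1% higher and 49.7% lower. The libraries did not overlap for 74.1% of all genes, and 35.7% were called with at least a 2-fold change, as were 4 of the 7. Of these, MGST2 changed at least 16-fold, as did 2.67% of all genes. GSTM4 and MGST2 entered through 1 group only. The median log2 change of the 7 was -0.43, against -0.12 over all genes tested. The exact permutation p of all 7 was 0.000155, again the smallest possible.

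**Figure D3:**
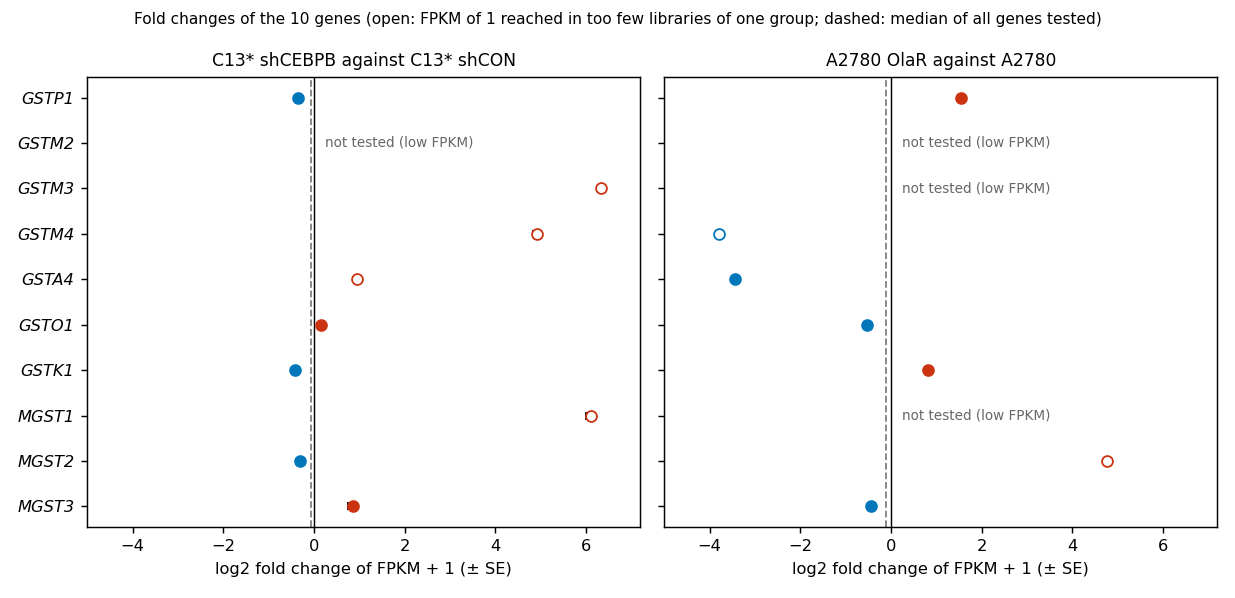
Log2 fold change of FPKM + 1 (horizontal axis, with bars of 1 standard error, most of them smaller than the symbol) for each gene (vertical axis) in both comparisons. Red symbols are higher and blue symbols lower in the first group named, open symbols reached 1 FPKM in too few libraries of one group, and the dashed line is the median of all genes tested. In the left panel GSTM3 (6.32), MGST1 (6.10) and GSTM4 (4.91) lie farthest to the right, and in the right panel MGST2 (4.76).

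FPKM is a length-scaled unit, so the 10 genes can be added. Their sum was 1425 ± 36.9 in shCON, 1486 ± 43.9 in A2780 OlaR, 1374 ± 91.6 in shCEBPB and 693 ± 16.8 in A2780. GSTP1 made up 83.4% of the sum in shCON, 84.2% in A2780 OlaR, 67.9% in shCEBPB and 61.5% in A2780. Without GSTP1 the sum was 237 ± 9.86 in shCON, 234 ± 8.76 in A2780 OlaR, 439 ± 26.6 in shCEBPB and 267 ± 4.74 in A2780. The groups thus differed in which genes filled the sum. GSTM2 to GSTM4 took 8.69% in shCEBPB and 3.30% in A2780, but 0.0229% in shCON and 0.0475% in A2780 OlaR. The microsomal genes took 11.3% in shCEBPB and between 3.70% and 5.43% in the other groups. GSTO1 alone took between 14.9% and 16.8% in the A2780 libraries.

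**Figure D4:**
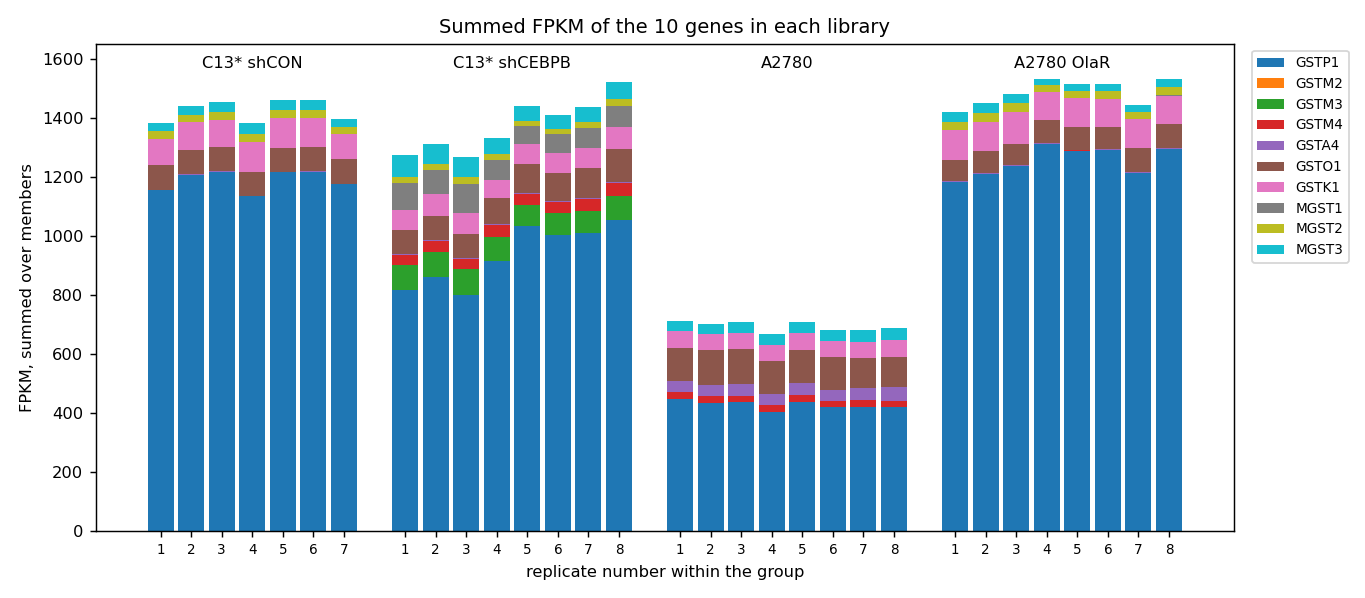
Summed FPKM of the 10 genes (vertical axis, from 0) in each library (horizontal axis, replicate number within its group), stacked by gene. GSTP1 was the main component in all 31 libraries, and the A2780 bars, at 666 to 712, were the shortest.

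Libraries within a group also differed. The library codes run from 1 to 8, and in shCEBPB the 3 libraries coded 1 to 3 did not overlap with those coded 4 to 8 for 6 of the 9 genes with a group mean of at least 1 FPKM. Among all genes at that level 53.4% separated in the same way, so 6 of 9 is close to the share in the whole table. GSTP1 was at 799 to 860 FPKM in codes 1 to 3 and at 913 to 1052 in codes 4 to 8. MGST1 was at 80.4 to 97.0 and 60.3 to 71.3, respectively. MGST3 was at 67.1 to 73.7 and 47.5 to 58.6. The other 3 genes were GSTM3, which was higher in codes 1 to 3, and GSTM4 and GSTO1, which were lower there. In A2780 OlaR the same held for 2 of 6 genes, GSTK1 and MGST3, where 57.2% of all genes separated. It held for 0 of 6 genes in shCON (4.77% of all genes) and for 0 of 6 in A2780 (20.7% of all genes). The labels do not say what the codes stand for. Within codes 1 to 3 the change of GSTP1 in shCEBPB was -0.53 and within codes 4 to 8 it was -0.24, both with the sign found in all libraries, and with quantile normalization it was -0.17. For MGST3 the change in shCEBPB was 1.21 and 0.63.

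Other genes of glutathione metabolism were counted from lists, and their values in both comparisons share no library. Among all genes tested, 84.7% were called in shCEBPB against shCON (38.9% higher, 45.7% lower). In A2780 OlaR against A2780 the share was 89.8% (40.1% higher, 49.7% lower). A call in any list below was therefore the usual outcome. Of the other transferase genes, 8 could be tested in shCEBPB against shCON, and 2 rose and 6 fell. GSTM1 rose to 66.1 FPKM from a group at 0, and GSTO2, the second Omega gene, fell by 2.95 (log2, adjusted p = 1.42e-13) to 2.61 FPKM from 26.2. In A2780 OlaR against A2780, 6 of 7 rose and 1 fell. PTGES, the microsomal prostaglandin E synthase, rose by 4.68 (adjusted p = 4.74e-27), from 5.01 to 153 FPKM. GSTO2 rose by 2.62 (adjusted p = 1.09e-17). GSTO1 fell where GSTO2 rose in A2780 OlaR, while in shCEBPB the sign of GSTO1 turned with quantile normalization.

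The genes that make and recycle glutathione numbered 8, all tested. In shCEBPB 3 rose and 5 fell. SLC7A11, the cystine importer, fell by 2.58 (adjusted p = 1.90e-12), and GCLC, the catalytic subunit of the rate-limiting ligase, fell by 1.71 (adjusted p = 1.34e-14). CTH, which makes cysteine from cystathionine, rose by 2.64 (adjusted p = 3.01e-15). In A2780 OlaR 5 rose and 3 fell. GCLC rose by 2.02 (adjusted p = 1.30e-19), and CBS, which makes cystathionine, fell by 3.07 (adjusted p = 3.73e-19). The median log2 change of the list was -0.57 in shCEBPB and 0.83 in A2780 OlaR.

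Of the genes that break glutathione down, 10 of 12 were tested. In shCEBPB 4 rose, 4 fell and 2 were not called, and in A2780 OlaR 4 rose and 6 fell. ANPEP, an aminopeptidase, rose by 3.66 in shCEBPB (adjusted p = 2.66e-14), and CHAC1, which cleaves glutathione in the cytosol, fell by 4.10 in A2780 OlaR (adjusted p = 2.96e-21). ANPEP reached 1 FPKM in no shCON library, so it entered through shCEBPB. GGT5 and GGT6 reached it in no shCEBPB or A2780 library, so they entered through shCON and A2780 OlaR, and GGT7 entered through A2780. CHAC1 reached it in 2 of 8 shCEBPB libraries. Of the glutathione peroxidases, 6 of 9 were tested, with 2 up, 3 down and 1 not called in shCEBPB and 3 up and 3 down in A2780 OlaR. GPX2 fell by 5.30 in shCEBPB (adjusted p = 2.94e-23), where it reached 1 FPKM in no library, so it entered through shCON. GPX3, which also fell there, entered in the same way. GPX1, the main cytosolic peroxidase, was at 0.313 FPKM in A2780 and at 419 in A2780 OlaR, a log2 change of 8.34 (adjusted p = 1.08e-21). It reached 1 FPKM in a single A2780 library, so the size of this change depends on the pseudocount. GPX2 and GPX3 reached it in no A2780 library. The 3 peroxidases that rose, GPX1, GPX2 and GPX3, thus entered through A2780 OlaR, where they are high.

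The 7 glutaredoxins and glyoxalases had 3 higher, 2 lower and 2 not called in shCEBPB, and 3 higher and 4 lower in A2780 OlaR. GLRX, a glutaredoxin, rose by 2.07 in shCEBPB (adjusted p = 2.79e-16), and GLRX2, the mitochondrial form, fell by 2.44 in A2780 OlaR (adjusted p = 3.32e-21). Of the 6 genes that export glutathione conjugates or related compounds, 3 rose, 2 fell and 1 was not called in shCEBPB, and 5 rose and 1 fell in A2780 OlaR. ABCC3 fell by 1.64 in shCEBPB (adjusted p = 1.01e-13) and rose by 4.85 in A2780 OlaR (adjusted p = 4.93e-24). ABCC2 rose in both, by 1.07 (adjusted p = 8.51e-09) and 3.42 (adjusted p = 1.00e-19). In A2780, ABCC2 reached 1 FPKM in 3 of 8 libraries and ABCC3 in 1 of 8, so both entered that comparison through A2780 OlaR.

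Among 11 regulators of these genes, 5 rose and 6 fell in shCEBPB, and 5 rose, 5 fell and 1 was not called in A2780 OlaR. FOS, a subunit of AP-1, rose by 3.35 in shCEBPB (adjusted p = 2.99e-19), while JUN, its partner, fell by 1.55 (adjusted p = 2.92e-10). KEAP1, which targets NRF2 for degradation, fell by 1.46 (adjusted p = 4.53e-11). MAFK, a small partner of NRF2, rose by 2.70 in shCEBPB (adjusted p = 6.00e-10) and fell by 1.44 in A2780 OlaR (adjusted p = 8.47e-09). The squamous markers changed in the same comparisons: 9 of 10 fell in shCEBPB and all 10 rose in A2780 OlaR. Only 3 of these 10 had a mean of at least 1 FPKM in shCEBPB and 1 in A2780. The others entered through the group where they are high, so these counts describe the genes that passed. Of 6 epithelial markers, 4 fell and 2 rose in shCEBPB and all 6 rose in A2780 OlaR. The same limit holds here, since 2 of the 6 had a mean of at least 1 FPKM in shCEBPB and 4 in A2780. Of the mesenchymal markers, 3 rose and 2 fell in shCEBPB, and 1 rose and 3 fell in A2780 OlaR. Some of these, such as ZEB1 with a mean of 0.507 in shCON, also entered through 1 group only. VIM, an intermediate filament gene, had a mean of 9.82 in shCON, 0.160 in A2780 OlaR, 342 in shCEBPB and 809 in A2780. The part of these lists in the results was not tested.

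**Figure D5:**
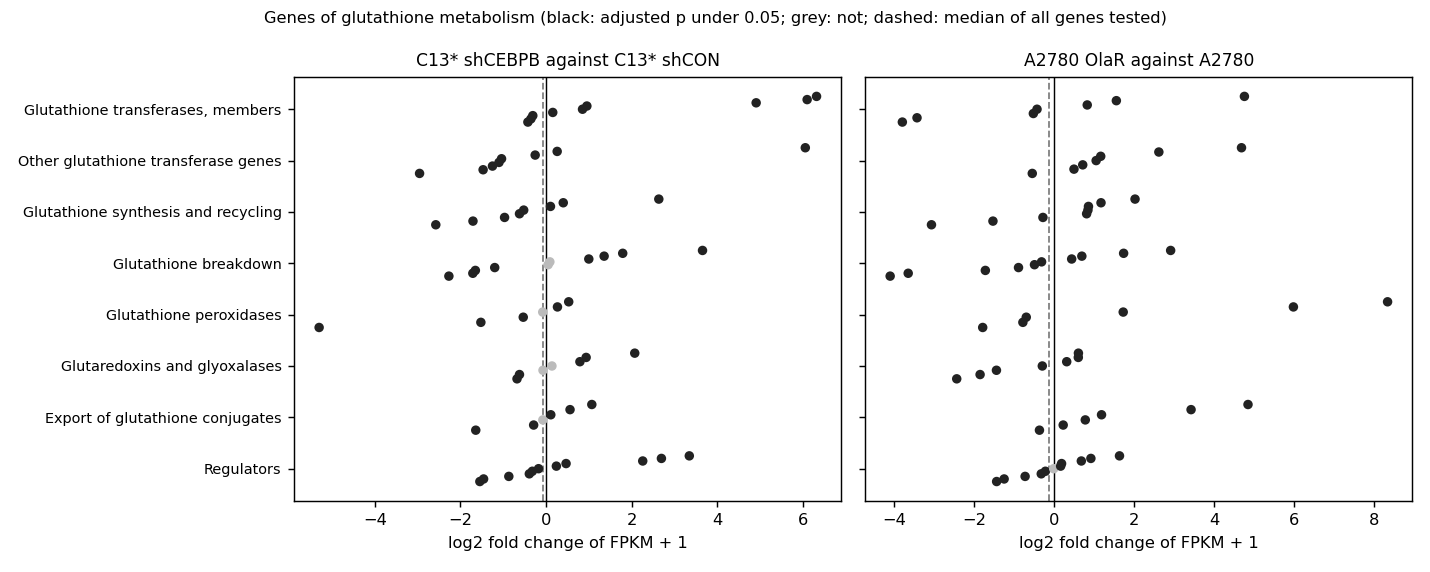
Log2 fold change of FPKM + 1 (horizontal axis) of each gene tested, by list (vertical axis), in both comparisons. Black points have an adjusted p under 0.05, grey points do not, and the dashed line is the median of all genes tested. Most lists hold genes on both sides of 0, with GPX2 (-5.30) at the left end of the left panel and GPX1 (8.34) at the right end of the right panel.

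Across the 31 libraries the genes most like each of the variable transferase genes were found by Pearson's r of log2(FPKM + 1). The libraries fall into 4 groups, so these values describe group patterns. MGST1 and GSTM3 followed each other (r = 0.999), and so did GSTM2 and GSTM4 (r = 0.963) and GSTP1 and MGST2 (r = 0.969). GSTP1 and GSTA4 ran in opposite directions (r = -0.957). Of 12966 other genes, SMIM10 and MUC13 were most like GSTM3, MT1E and RNF212 most like MGST1 (r = 0.999 for both), EEF1A2 (r = 0.996) and SPIN3 (r = 0.995) most like GSTM4, and SAMD11 (r = 0.973) and KCNJ12 (r = 0.972) most like GSTM2. XBP1 (r = 0.995) and HNRNPLL (r = 0.994) were most like GSTA4, and CD44 and TRIP13 (r = 0.998 for both) most like MGST2.

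In the fit of all 4 groups, the order of the levels was set against the spread. Between shCON and A2780 OlaR, the log2 difference missed the threshold for 7 of the 9 genes tested, where 37.7% of all genes were called. The 7 were GSTP1, GSTK1 (-0.06, adjusted p = 0.274), GSTO1 (0.10, adjusted p = 0.177), MGST1 (-0.08, adjusted p = 0.433), MGST2, MGST3 (0.19, adjusted p = 0.141) and GSTM3. GSTM3 and MGST1 were at or near 0 in both groups and entered the fit through shCEBPB only. The exact permutation p of single genes was 0.0152 for GSTP1 and 0.0191 for GSTO1. It is not adjusted over genes and uses only this pair of groups, so it cannot be set directly against the adjusted p of the fit. The means of GSTA4 in A2780 OlaR and shCEBPB did not differ beyond their spread either (-0.11, adjusted p = 0.0828). MGST1 in A2780 was below A2780 OlaR in this fit (adjusted p = 0.0209), but on very few fragments. MGST3 differed between A2780 and shCON, neighbours in its order (adjusted p = 0.0258).

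Counted over all 6 pairs of groups in that fit, shCON and A2780 OlaR differed at 2 of the 9 genes tested, where 37.7% of all genes were called. A2780 and shCON differed at 7 of the 9, where 87.6% of all genes were called (34.7% with at least a 2-fold change). GSTM3 and MGST1, which are near 0 in both, were the exceptions. A2780 OlaR and A2780 differed at 8 of the 9 (88.0% of all genes), all except GSTM3. A2780 OlaR and shCEBPB also differed at 8 (84.8% of all genes, 27.3% with at least a 2-fold change), all except GSTA4. A2780 and shCEBPB differed at all 9 (88.0% of all genes, 36.9% with at least a 2-fold change), and so did shCEBPB and shCON (84.3% of all genes). shCON and A2780 OlaR, the pair with the fewest called transferase genes, also had the fewest called genes in the whole table.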

How the data were processed

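The 31 mRNA libraries were sequenced for the authors by BerryGenomics with paired-end reads. Per the authors' methods and processing notes, TopHat mapped the reads to hg38 and HTSeq counted them over genes. The authors deposited FPKM in 1 table. The FPKM tool, the annotation and the use of strand are not given in the sources used here. The table held 19225 entries, of which 4 with 2 repeated symbols were left out, and 1212 genes were at 0 in every library. Absolute depth is unknown. The steps of low values gave relative depths of 0.865 to 1.23, so counting error is not given.

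The sample titles gave the groups and replicate numbers. The 10 genes and the gene lists were chosen with earlier results of these data known. All 10 genes are named in every group, and of each other list the called genes with the largest rises and falls were eligible, at most 2 each way per comparison. Each comparison was fitted with limma 3.58.1 in R 4.3.3 (lmFit, eBayes with a trend, two-sided) on log2(FPKM + 1), for genes that reached 1 FPKM in at least as many libraries as the size of the smaller group. These are not count tests, and fold changes on this scale understate the change of low genes. Benjamini-Hochberg adjustment ran over all genes tested, and a gene was called if its adjusted p was under 0.05. A further fit held all 4 groups, with 6 pairwise contrasts, and single genes had a two-sided exact permutation test of the mean log2(FPKM + 1). Simulated data with known changes in a small share of genes and independent normal noise were used to check the limma step. They held no structure by library code and far fewer changed genes than were called here, so the check does not cover those features. Genes most like a transferase gene in pattern were named for those whose highest group mean was at least 4 times the lowest. Gene positions came from GENCODE 44 on hg38. Alternatives were other pseudocounts, filters, scalings, replicate blocks, library ranges, a fold threshold, 1 fit of all groups and, chosen after seeing the data, leaving out each library. Python 3.11.15 with numpy 2.4.6, pandas 2.3.3 and matplotlib 3.10.9 was used for the other steps.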

Additional observations from a re-analysis of the deposited data

Results flagged for a closer look

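Single libraries stood apart from the rest of their group in 5 of 38 tests of the 10 genes (Dixon's criterion), and 4 of these were trace values. For normal values chance gives about 1 in 20. A lone library above 0 in a group otherwise at 0 is always flagged, so the count cannot be set against that rate. GSTM2 was at 0.0383 FPKM in C13* shCON replicate 1, with all other shCON libraries at 0, and this is the library with a second cell line name in its labels. GSTM2 was also at 0.193 in A2780 OlaR replicate 2, where the next library was at 0.0422. GSTM3 was at 0.0213 in C13* shCON replicate 5, with the other shCON libraries at 0. MGST1 was at 0.0477 in A2780 replicate 7, with the other A2780 libraries at 0. GSTA4 was the only abundant case, at 46.7 in A2780 replicate 8, where the next library was at 41.2. Without that library the fall of GSTA4 in A2780 OlaR was -3.40, against -3.43 with all libraries.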

How the results depend on the processing

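Counts of called genes were stable under most settings. In both comparisons together, 24 of 26 counts from other settings lay within 1.5 times the main count of 9 in C13* shCEBPB and 7 in A2780 OlaR. The exceptions came with a fold change of at least 2, which left 3 genes in C13* shCEBPB (3 higher, 0 lower) and 4 in A2780 OlaR (2 higher, 2 lower). Leaving out 1 library at a time gave 8 to 9 called genes in C13* shCEBPB and 7 in A2780 OlaR every time. The direction turned for GSTO1 in C13* shCEBPB only, to -0.0358 in libraries coded 1 to 3 and to -0.0046 with quantile normalization, and the cause was not tested. Its log2 change was 0.12 to 0.19 with 1 library left out (adjusted p = 0.0112 to 0.0654), and the call was lost without shCEBPB replicate 5, 6, 7 or 8 or shCON replicate 4, 5 or 6.

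Same-numbered libraries did not deviate together on average. The mean correlation of their deviations was -0.148 over 7 pairs in the C13* groups (range -0.512 to 0.462). It was -0.233 over 8 pairs in the A2780 groups (range -0.589 to 0.125). The main fits held no pairing. The numbers may still carry information, since library codes 1 to 3 and 4 to 8 separated many genes within groups. With the replicate block 8 genes were called in C13* shCEBPB (5 higher, 3 lower) and 7 in A2780 OlaR. GSTO1 was the gene lost (0.12, adjusted p = 0.0844), and by library code it was at 0.15 (adjusted p = 0.0611). Without a filter on low values 10 and 9 genes were called. Sizes depend on the pseudocount for genes with low FPKM in a group. Values with a pseudocount of 0.01 are given above for GSTM3, GSTM4, MGST1 and MGST2. For GSTA4 in A2780 OlaR that pseudocount gave -3.83, against -3.43. FPKM without counts set no detection limit for the genes listed at 0.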
